A study of Mus musculus with 6 samples.

Results

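Spliceosomal small nuclear RNAs (snRNAs) are short RNAs that, with their proteins, form the particles that remove introns. Of this class, 6 mouse genes were followed here: Rnu1a1, Rnu1b1, Rnu1b2 and Rnu1b6, which encode U1 RNA, and Rnu11 and Rnu12, which encode U11 and U12 RNA. They were found by name in 6 of the 59699 loci of the deposited count table, 53103 of which carry a gene name. The genes were singled out with their difference between genotypes already known, so their own counts are given as a description, without a test.

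Adrenal glands of 3 wild-type (WT) and 3 Armc5(-/-) knockout (KO) samples were compared by RNA sequencing to ask how transcript levels differ without Armc5. All came from female mice of 129 sv X CD1 background at 30 weeks of age, and no treatment is named. How the Armc5 allele was made, and whether each sample is a separate animal or a pool, is not given in the sources used here, so the p-values measure only the spread between these samples, which may be technical. The ARMC5 protein brings substrates, among them the large subunit of RNA polymerase II, to a ubiquitin ligase built on cullin 3.

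U1 RNA opens splicing by pairing its 5′ end with the 5′ splice site of an intron. U11 and U12 do the work of U1 and U2 in the minor spliceosome, which removes a small class of introns with their own splice-site sequences. These capped RNAs are made by RNA polymerase II from promoters read by the SNAPc complex, and their 3′ ends are formed by the Integrator complex. They are then exported, joined to a ring of Sm proteins and returned to the nucleus. Mouse U1 RNA comes in U1a and U1b forms, and U1b is known as the form that is abundant in embryonic tissues and scarce in most adult ones.

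The sequences below show how close the U1 forms are, which decides what short reads can tell apart. They are GENCODE M21 transcripts (GRCm38) written as DNA from 5′ to 3′. In the U1 sequences, capitals mark the bases of Rnu1a1 that differ from Rnu1b1, and the bases of Rnu1b1 and of Rnu1b6 that differ from Rnu1a1. In Rnu12 they mark the stretch that pairs with the branch point of U12-type introns.
Rnu1a1: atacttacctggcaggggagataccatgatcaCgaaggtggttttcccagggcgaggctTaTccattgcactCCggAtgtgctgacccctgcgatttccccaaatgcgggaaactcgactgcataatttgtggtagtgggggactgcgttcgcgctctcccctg
Rnu1b1: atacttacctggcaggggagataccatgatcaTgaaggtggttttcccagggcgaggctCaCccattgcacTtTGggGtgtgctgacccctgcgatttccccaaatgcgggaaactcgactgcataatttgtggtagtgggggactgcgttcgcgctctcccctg
Rnu1b6: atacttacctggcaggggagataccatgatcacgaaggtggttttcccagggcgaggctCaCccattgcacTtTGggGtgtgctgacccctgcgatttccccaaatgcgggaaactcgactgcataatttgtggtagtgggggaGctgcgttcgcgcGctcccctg
Rnu12: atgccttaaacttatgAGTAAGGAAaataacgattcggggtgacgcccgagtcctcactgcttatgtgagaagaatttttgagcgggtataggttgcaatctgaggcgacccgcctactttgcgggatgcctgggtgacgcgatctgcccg

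All 4 U1 genes carry the same 5′ end, with acttacctg after the first 2 bases, the stretch that pairs with 5′ splice sites. Rnu1a1 and Rnu1b1 were 95.8% identical, with 6 substitutions and 1 gapped base over an alignment of 165 positions. Most of these differences lie in the second stem-loop of U1, the one bound by the U1A protein. Rnu1b2 was identical to Rnu1b1, and Rnu1b6 was 98.2% identical to both. Rnu1a1 is at chr11:87422867-87423030 on the plus strand, and the U1b genes lie on chromosome 3, Rnu1b1 at chr3:96359953-96360117 on the minus strand, Rnu1b2 at chr3:96374021-96374185 on the plus strand and Rnu1b6 at chr3:96460024-96460189 on the minus strand. Rnu12 is at chr15:83149644-83149794 on the plus strand. Each of the 5 is annotated as a gene of a single exon with type snRNA.

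Identical copies limit what a single locus means. The Rnu1a1 sequence was carried by 5 single-gene loci of the table, that of Rnu1b1 by 2, that of Rnu1b6 by 3 and that of Rnu12 by 1. How reads that map to several places were counted is not given in the sources used here. Rnu1b1 and Rnu1b2 had equal counts in each of the 3 WT libraries, whereas the 5 loci identical to Rnu1a1 ranged from 768 to 2219 counts in WT replicate 1. The U1 values below therefore describe the U1a and the U1b sequence and cannot be assigned to a single gene copy. Rnu11 had no value of its own: the table merges it with Ythdf2, which encodes a reader of N6-methyladenosine, into a locus at chr4:132152243-132270213, and the 134 bases of Rnu11 make up 2.51% of its exon length.

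The 6 libraries held 70547288 to 130573434 counts, and the single-gene snRNA loci took 0.154% to 0.182% of the named counts in WT and 0.0606% to 0.187% in KO. The low value was that of KO replicate 3, which also held 295610 counts of the hepatocyte gene Alb, against 1289 or fewer in every other library. Counts of Armc5 were 2763, 3263 and 2233 in WT and 395, 269 and 473 in KO, a log2 fold change of -2.90 (SE 0.10) with an adjusted p of 0.00041 by edgeR's quasi-likelihood test with Benjamini-Hochberg adjustment. Markers of adrenal cortex and medulla were abundant in every library, and the kidney marker Umod was at 0 in all 6. The 4 medulla markers summed to 1276 to 1695 CPM (counts scaled to a common library size with TMM factors) in WT and 2478 to 2735 in KO, with Dbh and Chga called higher (adjusted p under 0.05 by edgeR), and the 5 cortex markers summed to 26830 to 43316 and 16551 to 22554 with none called. The 3 hepatocyte markers summed to 25.5 to 55.8 CPM in WT and 14.9 to 2836 in KO. The endothelial markers Pecam1 and Cdh5 together reached 161 to 190 CPM in WT and 126 to 140 in KO, with neither called. Ucp1, a brown fat gene, had a log2 fold change of -4.68 (adjusted p = 0.068 by edgeR), while the 2 adipocyte markers summed overlapped between the groups. Whether these marker differences reflect tissue make-up or play a part in the snRNA values was not tested. In such bulk samples fewer cells of a type cannot be told apart from less RNA per cell.

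The U1a gene Rnu1a1 was the most abundant U1 member in WT. Its counts were 1031, 1028 and 528 in the WT libraries and 700, 546 and 567 in the KO libraries. Scaled to library size, these were 10.2, 7.96 and 6.58 CPM in WT and 6.34, 7.16 and 4.38 CPM in KO. The groups overlapped, since KO replicate 2 stood above WT replicate 3. The mean was 8.24 ± 1.82 CPM in WT against 5.96 ± 1.43 CPM in KO (mean ± SD of n = 3), a log2 fold change of -0.47 (SE 0.25).

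The 3 U1b genes were near the bottom of the range in WT and about as abundant as Rnu1a1 or more so in KO. Rnu1b1 had 18, 9 and 5 counts in WT and 924, 450 and 425 in KO. Its mean level went from 0.103 ± 0.0646 CPM in WT to 5.85 ± 2.54 CPM in KO (mean ± SD of n = 3), which is 55.9-fold higher, with a log2 fold change of 5.80 (SE 0.58). All 3 KO libraries lay far above all 3 WT libraries, and within each group replicate 1 was the highest and replicate 3 the lowest.

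Rnu1b2, whose sequence is that of Rnu1b1, gave the same picture and is no second measurement of it. Its counts were 18, 9 and 5 in WT and 1006, 482 and 449 in KO, or 0.103 ± 0.0646 against 6.30 ± 2.82 CPM (mean ± SD of n = 3). The log2 fold change was 5.91 (SE 0.59), or 60.2-fold.

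Rnu1b6 was the highest of the U1b members in both groups. Its counts were 141, 34 and 15 in WT and 2330, 1467 and 907 in KO. In CPM it measured 1.39, 0.263 and 0.187 in WT and 21.1, 19.2 and 7.01 in KO. WT replicate 1 stood apart from the other WT libraries, yet the lowest KO library was still above it. The means were 0.614 ± 0.675 and 15.8 ± 7.65 CPM (mean ± SD of n = 3), 25.6-fold higher in KO, with a log2 fold change of 4.68 (SE 0.91). Without WT replicate 1 the log2 fold change was 6.10, and that of Rnu1b1 was 6.43 and that of Rnu1b2 6.54.

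Rnu12, the RNA that pairs with the branch point in the minor spliceosome, had 594, 514 and 254 counts in WT and 316, 294 and 269 in KO. These were 5.86, 3.98 and 3.16 CPM in WT and 2.86, 3.86 and 2.08 CPM in KO, and the groups overlapped. The means were 4.34 ± 1.38 and 2.93 ± 0.891 CPM (mean ± SD of n = 3), with a log2 fold change of -0.57 (SE 0.32). Rnu12 and Rnu1a1 kept a like proportion: the ratio of Rnu12 to Rnu1a1 counts was 0.576, 0.50 and 0.481 in WT and 0.451, 0.538 and 0.474 in KO. Without WT replicate 1 and KO replicate 3 the log2 fold change was -0.09 for Rnu12 and -0.11 for Rnu1a1.

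The merged Ythdf2/Rnu11 locus measured 60.9 ± 8.86 CPM in WT against 55.0 ± 3.99 CPM in KO (mean ± SD of n = 3), a log2 fold change of -0.15 (SE 0.13). Its counts were 7203, 7243 and 4453 in WT and 6459, 4268 and 6559 in KO, and the groups overlapped. The sign of this difference depended on the scaling, with 0.09 on the log2 scale when total counts alone were used. Nearly all of the locus is Ythdf2 sequence, and U11 RNA itself was not measured.

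**Figure D1:**
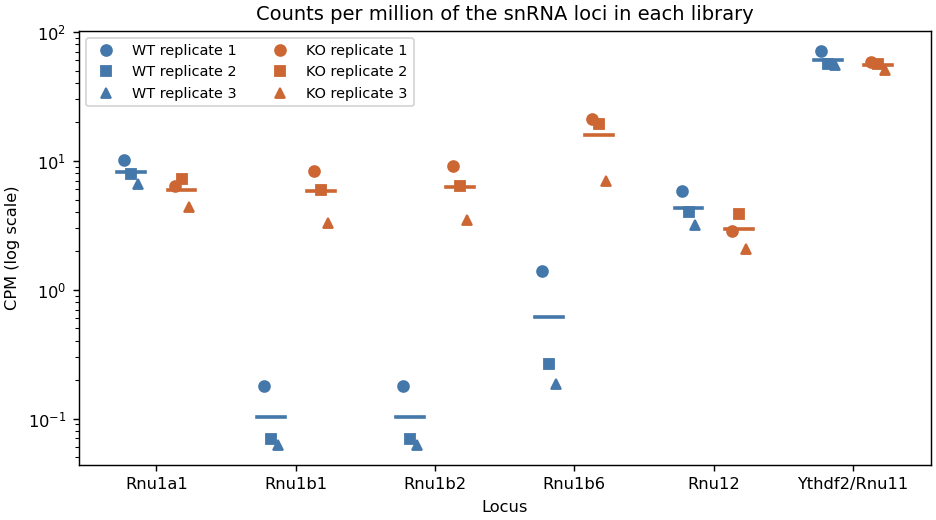
CPM (log axis) of the 5 single-gene snRNA loci and of the merged Ythdf2/Rnu11 locus in each library, with WT in blue, KO in orange, a marker shape for each replicate and a bar at the mean of 3. The KO points of Rnu1b1, Rnu1b2 and Rnu1b6 all lie above the WT points, while those of Rnu1a1, Rnu12 and Ythdf2/Rnu11 overlap.

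Across the 6 loci, 3 had KO libraries that all stood above the WT libraries, and the other 3 overlapped. Over all tested loci, 16.3% had no overlap with KO higher and 14.2% with KO lower. Since the genes were chosen on this contrast, the count is only a description. All 6 loci passed the filter on low counts. The U1 member loci together reached 11.9, 8.36 and 6.89 CPM in WT and 44.9, 38.6 and 18.1 CPM in KO. The group means were 9.06 ± 2.59 and 33.9 ± 14.0 (mean ± SD of n = 3), with a log2 ratio of the means of 1.90. This sum holds Rnu1a1 as its only U1a locus beside the 3 U1b genes. It is therefore weighted towards U1b and is not total U1 RNA. Over all single-gene snRNA loci of each sequence, U1a counts were 7193, 7268 and 3594 in WT and 4684, 3582 and 3753 in KO. Those of U1b were 871, 236 and 112 in WT and 15767, 9620 and 6432 in KO. Per kilobase of gene, the mean order in WT was Rnu1a1 at 50.2, Rnu12 at 28.7, Rnu1b6 at 3.70 and Rnu1b1 and Rnu1b2 at 0.626 CPM per kilobase. In KO it was Rnu1b6 at 95.1, Rnu1b2 at 38.2, Rnu1a1 at 36.3, Rnu1b1 at 35.5 and Rnu12 at 19.4 CPM per kilobase. There Rnu1b2, Rnu1a1 and Rnu1b1 were closer to each other than the SD of any of them, which was 8.71 or more.

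The balance between U1b and U1a within a library does not depend on how libraries are scaled. Rnu1b6 made up 12.03%, 3.20% and 2.76% of the Rnu1b6 and Rnu1a1 counts in WT, and 76.9%, 72.9% and 61.5% in KO. The group means were 5.998% ± 5.23 and 70.4% ± 7.97 (mean ± SD of n = 3). The lowest KO share had a 95% interval from 59.0% to 64.0% and the highest WT share one from 10.3% to 14.0% (Wilson, counting error only). Set against Rnu1a1 in the same way, Rnu1b1 had shares of 1.72%, 0.868% and 0.938% in WT and 56.9%, 45.2% and 42.8% in KO. In every KO library the U1b share lay above every WT share, and KO replicate 1 was the highest. KO replicate 3, the library with hepatocyte transcripts and few snRNA counts, had the lowest KO share.

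**Figure D2:**
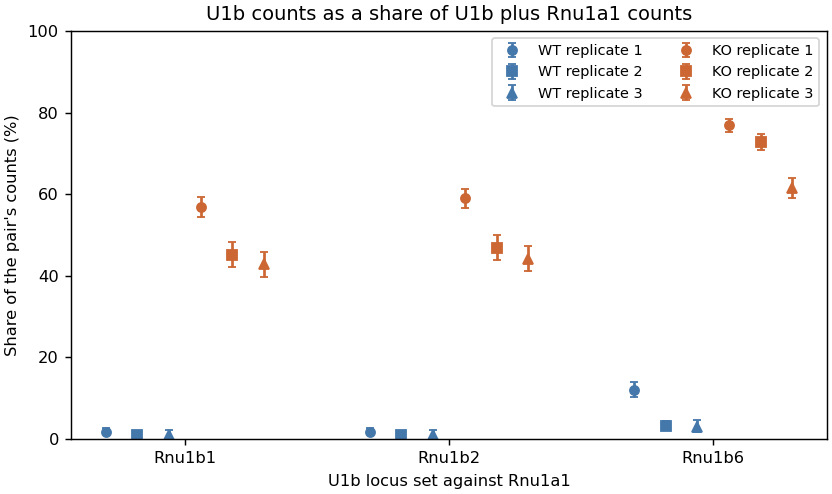
Counts of Rnu1b1, Rnu1b2 or Rnu1b6 as a percentage of that locus plus Rnu1a1, for each library, with WT in blue, KO in orange and bars for the 95% Wilson interval (counting error only). For Rnu1b6 the WT shares lie between 2.76% and 12.03% and the KO shares between 61.5% and 76.9%.

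The split between the forms ran through other loci of the same sequence. Loci annotated as snRNA were grouped by the reference sequence (such as U1a, U1b or U2) that they matched at 90% identity or more over the full length. Of 10 tested loci with U1a sequence, Rnu1a1 and its copies among them, on 6 chromosomes, all 10 had a negative log2 fold change. The median was -0.49 and the range -0.65 to -0.07. In 2 of the 10, every KO library was below every WT library, as in 14.2% of all tested loci. Under total counts alone 2 of the 10 turned positive and the median was -0.25. The 10 loci with U1b sequence that passed the filter on low counts include the 3 chosen genes, and their log2 fold changes ranged from 3.11 to 5.91 with a median of 4.66. Their common direction is a description only: it was set by the choice of genes, and some of the copies passed the filter through the KO libraries alone. Copies of near-identical sequence may share reads and are not separate measurements of the 2 forms.

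Of the U1b loci, 8 lay within chr3:96328425-96495149, among them the 3 members. Outside that cluster, Gm22042 on chromosome 4 had 56, 15 and 6 counts in WT and 1002, 633 and 417 in KO, and Gm26110 on chromosome 1 had 4, 4 and 2 in WT and 38, 27 and 21 in KO. Gm22042 is 98.8% and Gm26110 96.4% identical to the U1b form it matched best, so reads from the cluster could be counted there. Summed over its loci, U1b sequence took 10.8%, 3.14% and 3.02% of the U1a and U1b counts in WT and 77.1%, 72.9% and 63.2% in KO, close to the shares of Rnu1b6. Of all snRNA counts, U1b sequence took 0.407%, 0.105% and 0.0820% in WT and 8.75%, 7.43% and 8.78% in KO.

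The other snRNA classes, which were not among the chosen genes, were tested. Outside the U1 sequences, the non-member snRNA loci tested were 12 U2 and 19 U6 loci, 40 that matched no reference sequence, and smaller classes. Over all tested loci, 1.41% were called higher and 0.431% lower, and whether these snRNA loci exceeded that share was not tested. Of them, 2 were called by edgeR at an adjusted p under 0.05, both higher in KO and none among the 40. One was Gm22973, a U2 locus, and the other is not described here. The U1b copy Gm26110 also fell under the threshold, but it may share reads with the chosen genes and is near 0 in WT, so its call is not counted. U2 RNA pairs with the branch point of most introns.

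Gm22973 lies at chr12:59040335-59040525 on the plus strand. It had 566, 639 and 349 counts in WT and 7313, 5424 and 2904 in KO. It rose from 4.96 ± 0.620 to 53.3 ± 26.8 CPM (mean ± SD of n = 3), a log2 fold change of 3.42 (SE 0.45) with an adjusted p of 0.028 by edgeR's quasi-likelihood test. Rnu2-10, the U2 gene with the reference sequence, is identical to 3 other U2 loci of the table, so its counts cannot be assigned to 1 gene copy. It had 22218, 23048 and 14764 counts in WT and 13555, 9769 and 4842 in KO. It measured 193.9 ± 22.2 and 96.1 ± 50.9 CPM, with a log2 fold change of -1.01 (SE 0.44) and an adjusted p of 0.24 by the same test. Every KO library was below every WT library, as in 14.2% of all tested loci. KO replicate 3 was the lowest at 37.4 CPM, against 123 and 128 CPM in the other KO libraries. The log2 fold change was -0.63 without it and -0.53 without WT replicate 1 and KO replicate 3. Rnu2-10 was named after its values were seen. These U2 sequences show what sets the called locus apart, with capitals at the 9 positions where they differ, a match of 95.3%.
Rnu2-10: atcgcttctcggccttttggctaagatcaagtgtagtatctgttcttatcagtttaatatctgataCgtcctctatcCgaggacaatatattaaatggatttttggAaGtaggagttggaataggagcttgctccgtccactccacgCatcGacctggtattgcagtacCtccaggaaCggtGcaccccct
Gm22973: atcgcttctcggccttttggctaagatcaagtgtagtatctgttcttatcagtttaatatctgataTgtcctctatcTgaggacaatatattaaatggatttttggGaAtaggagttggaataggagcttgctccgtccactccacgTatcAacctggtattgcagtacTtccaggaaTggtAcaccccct

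Of 12 tested U2 loci, 3 had a positive and 9 a negative log2 fold change, with a median of -0.21. These are near-identical copies that may share reads, not separate measurements. Under total counts alone 7 of the 12 were positive and the median was 0.02, and without KO replicate 3 likewise 7 were positive, with a median of 0.13. None of 19 tested loci with U6 sequence was called by edgeR. Gm22973 lost its call with the replicate number as a block, where its log2 fold change was 3.27, and in 5 of the 6 fits that left out 1 library (adjusted p from 0.0505 to 0.137 by edgeR). Its log2 fold change ranged from 3.16 to 3.79 over those 6 fits. DESeq2 called 12 of the non-member snRNA loci, U1 copies included, and 12.4% of all loci it tested. These 12 were drawn from all tested snRNA loci except the 5 member loci. That pool held the 12 U2 and 19 U6 loci, 40 that matched no reference sequence, smaller classes, and the 10 U1a and 10 U1b loci. Beside the share of all loci, the count is a description only and not a result about snRNAs.

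**Figure D3:**
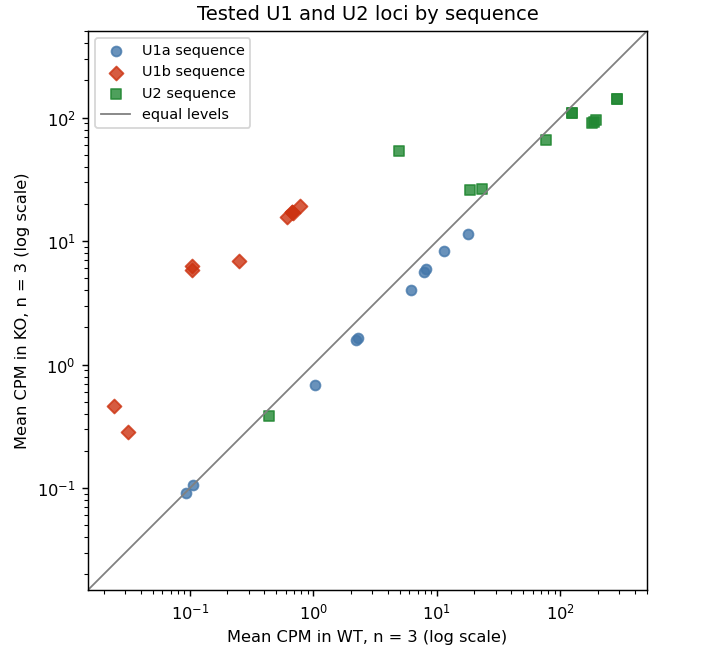
Mean CPM in KO against mean CPM in WT (both log axes, n = 3 each) for tested loci with U1a, U1b or U2 sequence, with a line of equal levels. The 10 U1b loci, which include the 3 chosen genes, lie well above the line, the U1a loci on or just below it, and 1 U2 locus, Gm22973, stands apart from the others of its class.

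Loci around the genes were measured next, within 5000 bases. Rnu1a1 lies inside Tex14, a gene of germ-cell bridges on the same strand, whose counts were 66, 60 and 39 in WT and 156, 87 and 198 in KO. Tex14 had a log2 fold change of 1.35 and an adjusted p of 0.056 by edgeR, and so did not pass. Gm22068, the nearest copy of Rnu1a1, had 992, 1000 and 502 counts in WT and 673, 511 and 539 in KO. At the U1b genes the named neighbours were nearly silent. Gm26553 and Gm26689 held 2 counts each in 1 WT library, and Platr30 held 2 counts in each of 2 KO libraries. Gm17575, downstream of Rnu1b2 on the other strand, held no counts in WT and 9, 5 and 3 in KO. Gm43534 held at most 3 counts in a library, Gm10685 none, and Gm9207 had an adjusted p of 0.72 by edgeR.

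Downstream of Rnu1b6 on its own strand lay 2 unnamed loci. The one 799 bases away had 16, 18 and 7 counts in WT and 175, 28 and 218 in KO, or 0.128 ± 0.0367 and 1.21 ± 0.733 CPM (mean ± SD of n = 3). The one 1854 bases away had 0, 6 and 2 counts in WT and 41, 5 and 30 in KO. Loci without a gene name were outside the test, so these values stand without a p.

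At the Ythdf2/Rnu11 locus, the antisense gene Gm28872 held 7 counts in 1 WT and 3 in 1 KO library. Gm28874 had 14, 18 and 16 counts in WT and 66, 26 and 48 in KO, with a log2 fold change of 1.46 and an adjusted p of 0.097 by edgeR. Taf12, a subunit of the general factor TFIID, had a log2 fold change of -0.20 and an adjusted p of 0.32. On either side of Rnu12, Poldip3, which starts 260 bases away on the opposite strand, had a log2 fold change of -0.15 (adjusted p = 0.42 by edgeR), and Cyb5r3, a cytochrome b5 reductase, one of -0.06 (adjusted p = 0.89 by edgeR). Whether counting used strand is not given in the sources used here, so overlapping genes may share reads.

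The proteins that build and use snRNAs showed no call. Of 118 genes in 10 lists, 103 were measured in loci that hold no other protein-coding gene, 14 were merged with another protein-coding gene and Zfp76 was not found in the table. None of the 103 was called by edgeR, while 1.84% of all tested loci were. Every KO library stood above every WT library in 5 of the 103 and below in 21. Over all tested loci these shares were 16.3% and 14.2%. At an unadjusted p under 0.05 there were 4 higher and 5 lower, against 22.2% of all tested loci in either direction, and DESeq2 called 1 higher and 1 lower. Their median log2 fold change was -0.05, with 36 positive and 67 negative, beside a median of -0.01 and 49.3% positive over all tested loci. Under total counts alone the medians of all 10 lists were positive, as was the median of all loci, 0.22.

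Of the U1 particle's own proteins, Snrnp70, which binds the first stem-loop, measured 72.8 ± 3.07 CPM in WT against 71.2 ± 3.07 in KO (mean ± SD of n = 3). Its log2 fold change was -0.03 (adjusted p = 0.85 by edgeR). Snrpc, which steadies the pairing with the splice site, had a log2 fold change of -0.25 (adjusted p = 0.28 by edgeR). Snrpa, which encodes the U1A protein, was merged with other genes and had no value of its own. Among factors that work beside U1, Prpf40b had a log2 fold change of 0.26 (adjusted p = 0.22 by edgeR) and Tial1, which helps U1 at weak splice sites, 0.12 (adjusted p = 0.54 by edgeR).

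The Sm proteins form the ring shared by U1, U2, U4, U5, U11 and U12. Of 7 measured, 6 had a negative log2 fold change, with a median of -0.23 that became 0.01 under total counts alone. Snrpd1 had -0.34 (adjusted p = 0.26 by edgeR) and Snrpd3 -0.20 (adjusted p = 0.26 by edgeR). Of the LSm ring that holds U6, 4 of 6 were negative, with Lsm4 at -0.36 (adjusted p = 0.36 by edgeR) and Lsm3 at -0.16 (adjusted p = 0.40 by edgeR).

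Proteins of the minor spliceosome, in which U11 and U12 act, had 5 positive and 6 negative values, and the median log2 fold change was -0.04. Zrsr2, which recognises the 3′ splice site of U12-type introns, measured 14.6 ± 0.252 CPM in WT against 11.9 ± 1.13 in KO (mean ± SD of n = 3), with a log2 fold change of -0.29 (adjusted p = 0.20 by edgeR). Zmat5, a protein of the U11/U12 particle, had -0.53 (adjusted p = 0.23 by edgeR). In the U2 list 9 of 11 were negative, with Phf5a at -0.27 (adjusted p = 0.23 by edgeR) and Sf3b2 at -0.17 (adjusted p = 0.25 by edgeR). In the U4/U6.U5 list 11 of 14 were negative. Usp39, needed for the tri-snRNP to join the spliceosome, measured 26.7 ± 2.20 CPM in WT against 20.1 ± 1.20 in KO (mean ± SD of n = 3), with a log2 fold change of -0.41, an adjusted p of 0.097 by edgeR and of 0.019 by DESeq2. Eftud2, the GTPase of the U5 particle, had -0.16 (adjusted p = 0.26 by edgeR).

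Factors that make snRNAs were measured as well. Of the promoter and elongation factors, 6 of 10 were positive, with SNAPc subunits Snapc5 at -0.40 (adjusted p = 0.21 by edgeR) and Snapc2 at -0.45 (adjusted p = 0.35 by edgeR). Of 16 Integrator subunits, 7 were positive and 9 negative. Nabp1, a single-stranded DNA binding protein found with Integrator, had the largest positive value of all lists, from 22.3 ± 5.43 CPM in WT to 53.4 ± 14.4 in KO (mean ± SD of n = 3). Its log2 fold change was 1.26, with every KO library above every WT library, an adjusted p of 0.067 by edgeR and of 0.00027 by DESeq2. Ints6 had 0.35 (adjusted p = 0.12 by edgeR). In the list of export, assembly and maturation factors, 7 of 19 were positive. Strap, a partner of the SMN complex that loads Sm rings, had the largest negative value at -0.74 (adjusted p = 0.19 by edgeR), and the export receptor Xpo1 had -0.16 (adjusted p = 0.26 by edgeR).

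**Figure D4:**
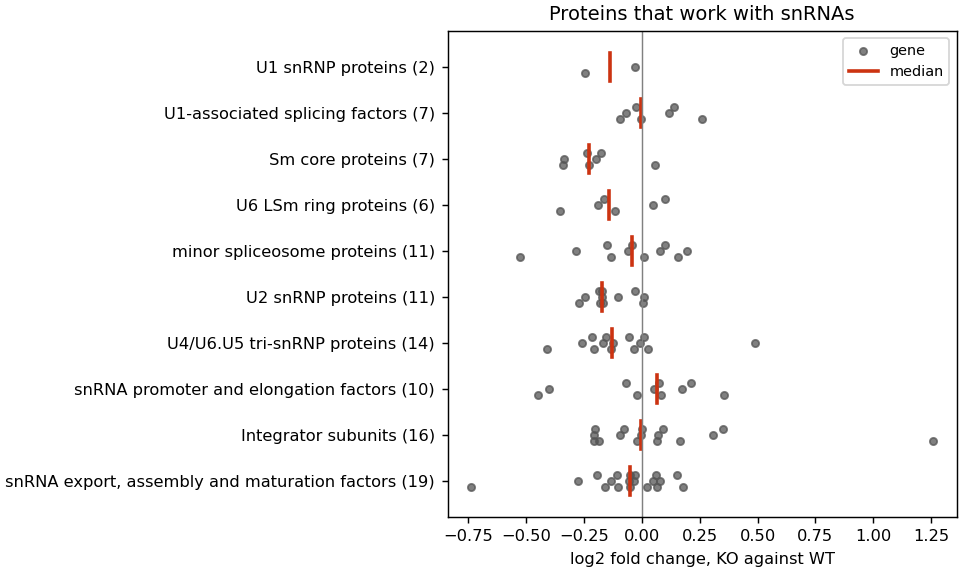
Log2 fold changes, KO against WT, of 103 genes whose proteins work with snRNAs, by list, with the number measured in brackets, a dot for each gene and a bar at the list's median. None passed the edgeR test, and Nabp1 at 1.26 and Strap at -0.74 are the outermost points.

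RNA polymerase II itself and 7SK, an abundant RNA made by polymerase III, were measured for comparison. Polr2a, the gene of the polymerase's large subunit, measured 290 ± 59.2 CPM in WT against 227 ± 19.4 in KO (mean ± SD of n = 3), with a log2 fold change of -0.36 (adjusted p = 0.27 by edgeR). Rn7sk had a log2 fold change of -0.20 (adjusted p = 0.46 by edgeR).

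Loci with a pattern like that of the members were ranked by Pearson's r of log2(CPM + 0.5) over the 6 libraries, among 15255 named loci, as a description of libraries that share group, depth and scaling. The nearest to the summed U1 member loci were Zfp821, Bbx, Pcnx/Gm49749, Cpne7/Mir7080 and Gm44435, each with r of 0.99. Zfp821, a zinc finger gene, measured 6.16 ± 0.353 CPM in WT against 8.68 ± 0.893 in KO (mean ± SD of n = 3). The nearest to Rnu12 were Ctc1, Gripap1, Gm24447, Gm26315 and Smarcd3, and to Ythdf2/Rnu11 they were Trim44, Nsmce1, Map2k2, Nfe2l1 and Gm14584, with r from 0.98 to 1.00. These neighbours depended on the scaling: with total counts alone, 1 of the 5 was shared for U1, 2 for Ythdf2/Rnu11 and 0 for Rnu12, and r of Ctc1 with Rnu12 fell from 1.00 to -0.09.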

How the data were processed

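RNA of 6 adrenal gland samples was sequenced after removal of rRNA, in libraries that keep strand, per the labels' protocols. The submitters' processing notes name the GRCm38 genome with Trimmomatic, STAR, StringTie, Picard and edgeR. Their versions, the counter, whether it used strand and how it treated multiply mapped reads are not given in those sources. The deposited table gives raw counts per locus, per the file headers. The authors also deposited log2 CPM, which entered 1 alternative, and locus lengths in bases, which entered the values per kilobase. Their log2 values scaled to Rn7sk were not used, and the alternative with equal Rn7sk counts was made from the raw counts. RNeasy columns, named in the labels, are known to hold short RNAs poorly, so snRNA levels are those of the RNA that was kept.

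Loci without a gene name (1.39% to 2.04% of counts) were left out of library sizes and tests. Counts were filtered with filterByExpr, scaled by TMM and tested with edgeR 4.0.16 in R 4.3.3 (glmQLFit, robust, and glmQLFTest, two-sided). P-values were adjusted over 21358 loci by Benjamini-Hochberg, and a call is an adjusted p under 0.05. An SE is the log2 fold change divided by the square root of F. Sequences and gene types came from GENCODE M21, and sequence classes from global alignment with Biopython 1.88.

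The genes, the lists and the rules were chosen with earlier results of these data known. Named were the 6 genes; Armc5, Rn7sk and Polr2a; loci within 5000 bases; called genes of a list, or else its 2 with the smallest p; called snRNA loci; and the 5 loci most like each pattern. No promoter sequence is shown, and 1 called snRNA locus with its class is not reported here. Alternatives were other scalings (RLE, total counts, equal Rn7sk counts), other filters, a replicate block, leaving out libraries, DESeq2 1.42.0 and limma 3.58.1, unnamed loci kept, and a pseudocount of 2. Leaving out WT replicate 1 with KO replicate 3 was added after seeing the data. The correlations of same-numbered WT and KO samples' deviations were -0.02, 0.01 and -0.13. Those of differently numbered samples ran from -0.06 to 0.07. These values show no sign that the numbers pair samples, but with 3 samples per group they cannot exclude it. The main fit treated the samples as unpaired.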

Additional observations from a re-analysis of the deposited data

Results flagged for a closer look

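Unnamed loci lie outside the tests and were looked at next to the U1b genes. The one 799 bases downstream of Rnu1b6 reached a mean of 1.21 CPM in KO, above its WT level of 0.128 CPM. The one 1854 bases downstream reached 0.223 CPM in KO, against 0.0238 CPM in WT. In both, every KO library was above every WT library in CPM, as in 16.3% of all tested loci. KO replicate 2 was the lowest of the KO libraries, at 0.367 and 0.0656 CPM, against at most 0.158 and 0.0464 CPM in WT. For the locus 1854 bases away these were 5 counts in KO replicate 2 and 6 in WT replicate 2. Its raw counts therefore overlapped, and the order in CPM rested on the scaling.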

How the results depend on the processing

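The 3 U1b genes and the summed U1 member loci kept a positive log2 fold change under every alternative run. Leaving out single libraries gave 5.45 to 6.43 for Rnu1b1, 5.54 to 6.54 for Rnu1b2, 4.26 to 6.10 for Rnu1b6 and 1.65 to 2.20 for the summed loci. Leaving out WT replicate 1 with KO replicate 3 gave 6.72, 6.83 and 6.45 for the U1b genes, -0.11 for Rnu1a1, -0.091 for Rnu12 and 0.038 for Ythdf2/Rnu11. Ythdf2/Rnu11 was also positive with total counts alone (0.090), equal Rn7sk counts (0.061) and limma-trend (0.086). Without 1 library, Rnu1a1 ranged from -0.62 to -0.29, Rnu12 from -0.81 to -0.29 and Ythdf2/Rnu11 from -0.21 to -0.021.

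Counts of calls moved widely, and the cause was not tested. Over all loci, 393 were called, and 672 with total counts, 711 with equal Rn7sk counts, 612 with at least 1 CPM in 3 libraries, 2626 with DESeq2, 1015 with limma-trend and 16 without both WT replicate 1 and KO replicate 3. Of the 393, 76.6% were higher in KO, against 94.8% with total counts, 94.1% with equal Rn7sk counts and 53.0% without WT replicate 1. Leaving out 1 library gave 15 to 644 calls: 644 without WT replicate 2, 20 without WT replicate 3, and 15, 22 and 37 without KO replicates 1, 2 and 3. Of the non-member snRNA loci, 3 were called with the U1b copy Gm26110 included, and 10 with total counts, 10 with equal Rn7sk counts, 8 with at least 1 CPM, 12 with DESeq2, 10 with limma-trend and 6 without WT replicate 1 and KO replicate 3; leaving out 1 library gave 0 to 5, with 5 without WT replicate 1, 1 without KO replicate 3 and 0 without each of the other 4. Of the protein lists, 0 were called, and 1 with total counts, 1 with equal Rn7sk counts, 2 with DESeq2 and 2 with limma-trend; leaving out 1 library gave 0 to 1, the call coming without WT replicate 2.

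With the replicate number as a block, 5 loci were called in all, 0 of the protein lists and 0 of the non-member snRNA loci. Same-numbered samples are known to share only that number. A block could not be applied to the ratio of summed means.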

Other observations

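The U3 genes, which encode the small nucleolar RNA that guides early cleavage of the pre-rRNA and is also a product of RNA polymerase II, were looked at after the values were seen. Rnu3a, at chr10:40258467-40258680, had 10324, 10151 and 5709 counts in WT and 24466, 18254 and 14543 in KO. It measured 83.9 ± 16.1 CPM in WT against 191 ± 68.8 in KO (mean ± SD of n = 3), with a log2 fold change of 1.19 (SE 0.30) and an adjusted p of 0.098 by edgeR, so it was not called. The 4 Rnu3b loci, a cluster of near-equal copies on chromosome 11 that may share reads, each had a log2 fold change of -1.57 with adjusted p from 0.057 to 0.058 by edgeR. Rnu3b3 among them had 38663, 36655 and 17010 counts in WT and 12270, 9054 and 8555 in KO. Neither U3 form was called. In both, every KO library stood on 1 side of every WT library, which is a description only. Of all tested loci, 16.3% had no overlap with KO higher and 14.2% with KO lower.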
